A study of Mus musculus with 6 samples.

Results

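Glycolysis splits glucose into pyruvate, and the pentose phosphate pathway branches off it at glucose 6-phosphate. The RNA of 34 genes of these pathways was followed in CD4+ dendritic cells (DC) of the spleen, with and without the transcription factor Runx3. The list named 3 glucose transporters, the enzymes from hexokinase to lactate dehydrogenase, 2 lactate carriers, the kinases that switch the flow on and off, 4 pentose phosphate genes and Hif1a. It was written from gene function, but with earlier results of these data known. A gene counted as measured when a probe set annotated with its symbol alone reached the background level of the study's methods, a log2 value of 6.5, in at least 1 of 6 arrays. Of the 34 genes, 27 were measured, among 9922 genes tested in all.

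To find genes that respond to Runx3, the study sorted CD4+ DC from the spleens of male mice at 6 weeks of age and hybridised each RNA to 1 Affymetrix array. Each of 3 litters gave 1 wild-type mouse (WT, labelled Runx3 +/+) and 1 Runx3-/- mouse, so that n = 3 per genotype, and array numbers 1 to 3 name the litter. The methods give no Cre driver for the Runx3-/- line, which means that cells other than DC lacked Runx3 as well. The cells carried CD11c and MHCII and were divided by CD4 and CD8, and whether Esam was also part of the gate is not settled by the labels. Values are log2 array signals, on which a difference of 1 is a doubling, and in such bulk RNA fewer cells of a type and less RNA per cell cannot be told apart.

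The pathway runs in stages. Glucose enters through carriers of the Slc2a family and is trapped by hexokinases, phosphofructokinase commits it to breakdown, and the lower enzymes recover ATP on the way to pyruvate, which is turned into lactate and exported or passed to mitochondria. The pentose phosphate branch yields NADPH and ribose for nucleotides. In DC, glycolysis is known to increase soon after activation through Toll-like receptors, and Hif1a and Myc are among the transcription factors known to drive its genes.

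Runx3 itself read 11.24, 11.22 and 11.11 in WT 1 to 3 and 9.16, 9.30 and 9.16 in Runx3-/- 1 to 3, a difference of -1.98 (SE 0.08, limma adjusted p = 0.0027) that left 25.3% of the WT level. A fit that kept the litter as a replicate block gave an adjusted p of 0.061, and leaving out WT 1 gave 0.054. Array medians lay between 6.57 and 6.65. All 9 CD4+ DC markers examined were above background, and their summed linear level was 42800 to 45200 in WT and 40300 to 42600 in Runx3-/- arrays. Irf4, a transcription factor of this subset, fell (-0.62, limma adjusted p = 0.043). At an unadjusted p of 0.05, 4 of the 9 (44.4%) were lower, Zbtb46 and Flt3 included, and 0 higher. Of all tested genes, 11.8% were lower and 7.59% higher at this threshold. None of the markers found on the array for neutrophils (7), T cells (5) or NK cells (5) reached background in any array.

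Differences between the genotypes ran in both directions, and each was at most 1.40-fold. No member passed the adjusted threshold of 0.05 (limma, Benjamini-Hochberg over all tested probe sets), the lowest adjusted p being 0.067, while 2.27% of all tested genes passed, a share at which 0 among 27 genes is no result about the members. Over the array, 298 probe sets passed, but 0 did in a fit with litters as a replicate block (limma, 3430 at an unadjusted p of 0.05) or without WT 1 (1972 unadjusted). At an unadjusted p of 0.05, 14 of the 27 measured members (51.9%) passed, against 19.4% of all tested genes. Of these, 7 were higher in Runx3-/- DC, where 7.59% of tested genes were, and 7 were lower, where 11.8% were. The higher ones include Hk3 and Eno2, which counted as measured only through Runx3-/- arrays, and without them 5 were higher and 7 lower. Without WT 1 or without Runx3-/- 1, 9 of the 27 members passed unadjusted. Over all 19149 tested probe sets the unadjusted count also fell, from 3042 to 1972 without WT 1 and to 2252 without Runx3-/- 1. With differences of at most 1.40-fold, 0 members met the differential expression limits of the methods (1.5-fold together with an unadjusted p no higher than 0.05), which 4.68% of tested genes met. Without WT 3 this count was 1, Eno2, whose WT values all lay below background, so that its fold is not a measured one.

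In 15 members (55.6%), 7 higher and 8 lower, the values of the genotypes did not overlap, against 28.5% of tested genes. Without Hk3 and Eno2, measured only through Runx3-/- arrays, this held for 13 of 25 members (52.0%), 5 higher and 8 lower. The median difference over the 27 members was -0.0023, with a range of -0.48 to 0.48, beside a median of -0.03 over all tested genes. Regardless of sign, the median size was 0.25 for members and 0.11 for all tested genes. The spread between mice was alike in both sets, with a median SD of 0.09 in WT and 0.11 in Runx3-/- arrays for members, and of 0.10 and 0.11 for all tested genes. For 19 members (70.4%) the 95% interval of the difference stayed within 1.5-fold either way, as it did for 81.3% of tested genes. Of the 13 members above the unadjusted threshold, this held for 12, the exception being Slc2a3, so for these a change of 1.5-fold lay outside the interval.

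**Figure D1:**
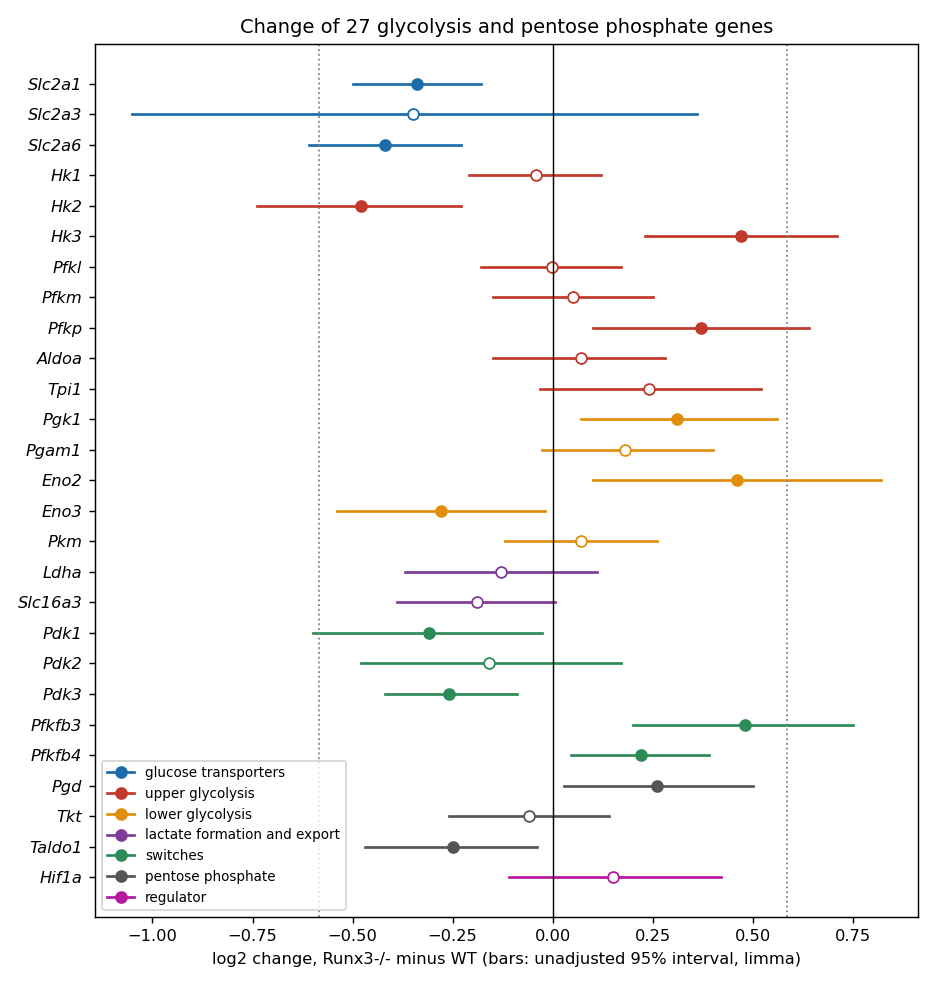
Log2 difference between Runx3-/- and WT DC for each of the 27 measured genes, ordered by role, with unadjusted 95% intervals from limma; filled points passed the unadjusted threshold of 0.05 and dotted lines mark 1.5-fold. The differences lie between -0.48 and 0.48, with 13 genes above and 14 below 0, and the interval of Slc2a3 is the widest.

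In the fit reported here and in 14 others, which differed in normalization, filter, test, litter term or the array left out, 6 members passed the unadjusted threshold of 0.05 each time. These were Slc2a1, Slc2a6, Hk2 and Pdk3, lower in Runx3-/- DC, and Pfkp and Pfkfb3, higher. The share of all tested genes that passed each time was not computed, so the count of 6 is no result about the members. All fits drew on the same arrays and are not independent. The promoters of these 6 genes are shown because the hypoxia response core, the motif read by Hif1a, and the RUNX motif can be looked for in them. Each line gives the 250 bases before an annotated start (RefSeq, GRCm38.p6), 5′ to 3′ on the strand of the gene, in lower case, with capitals for ACGTG or GCGTG (hypoxia response core) and TGTGGT (RUNX) on either strand, and a match on the other strand is spelled there as its reverse complement. The E-box CACGTG, which Myc binds, contains ACGTG on both strands.
Slc2a1, chr4:119108495-119108744, plus strand: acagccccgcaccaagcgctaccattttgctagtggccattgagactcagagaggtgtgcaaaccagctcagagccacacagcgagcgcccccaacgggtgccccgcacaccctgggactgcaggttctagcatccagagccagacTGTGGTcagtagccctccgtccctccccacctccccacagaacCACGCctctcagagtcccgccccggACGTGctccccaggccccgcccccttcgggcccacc
Slc2a6, chr2:27027999-27028248, minus strand: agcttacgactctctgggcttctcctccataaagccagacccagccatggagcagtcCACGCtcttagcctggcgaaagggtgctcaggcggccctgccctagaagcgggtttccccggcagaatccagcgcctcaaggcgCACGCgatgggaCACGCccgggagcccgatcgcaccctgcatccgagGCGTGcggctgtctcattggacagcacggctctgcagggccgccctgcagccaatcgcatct
Hk2, chr6:82774455-82774704, minus strand: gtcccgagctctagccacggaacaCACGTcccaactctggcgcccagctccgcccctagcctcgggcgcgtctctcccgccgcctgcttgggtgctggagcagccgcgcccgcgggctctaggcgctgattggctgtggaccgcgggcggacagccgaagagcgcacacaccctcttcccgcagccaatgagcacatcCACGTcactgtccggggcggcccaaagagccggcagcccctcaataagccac
Pdk3, chrX:93832151-93832400, minus strand: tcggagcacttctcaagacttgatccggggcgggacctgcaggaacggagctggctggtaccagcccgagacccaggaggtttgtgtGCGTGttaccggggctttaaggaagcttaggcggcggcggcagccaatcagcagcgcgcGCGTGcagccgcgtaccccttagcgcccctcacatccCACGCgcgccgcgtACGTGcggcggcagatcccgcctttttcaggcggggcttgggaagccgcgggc
Pfkp, chr13:6648772-6649021, minus strand: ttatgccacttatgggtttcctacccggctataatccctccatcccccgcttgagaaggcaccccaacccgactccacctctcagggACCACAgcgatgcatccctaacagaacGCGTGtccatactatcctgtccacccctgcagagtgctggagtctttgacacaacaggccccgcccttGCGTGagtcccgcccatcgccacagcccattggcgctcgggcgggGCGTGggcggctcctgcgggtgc
Pfkfb3, chr2:11553930-11554179, minus strand: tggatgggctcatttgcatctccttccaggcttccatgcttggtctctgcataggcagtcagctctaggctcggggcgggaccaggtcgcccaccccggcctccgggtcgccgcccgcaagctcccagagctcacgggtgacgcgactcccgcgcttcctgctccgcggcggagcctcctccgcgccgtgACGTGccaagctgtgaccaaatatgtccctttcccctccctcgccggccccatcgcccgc
Pfkfb3, chr2:11502091-11502340, minus strand: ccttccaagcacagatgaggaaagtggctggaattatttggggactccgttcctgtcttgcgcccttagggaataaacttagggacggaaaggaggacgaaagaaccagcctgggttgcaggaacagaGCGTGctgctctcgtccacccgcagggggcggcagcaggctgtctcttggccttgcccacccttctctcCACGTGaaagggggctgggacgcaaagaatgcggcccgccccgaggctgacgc

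The windows of the 4 lower genes hold 2 (Slc2a1), 4 (Slc2a6), 2 (Hk2) and 4 (Pdk3) hypoxia core matches, and those of the higher genes hold 3 (Pfkp) and 1 and 3 (the Pfkfb3 starts). TGTGGT stands in 1 lower gene, Slc2a1, and in 1 higher gene, Pfkp, while the E-box stands only before 1 of the Pfkfb3 starts. Over the whole list, 33 members had a promoter entry and Slc2a3 had none. A hypoxia core was found before 30 of the 33 genes (90.9%), compared with 62.2% of the 8040 tested genes with an entry and 41.5% of all genes in the table. A gene counted when any of its starts held a match. Counted by window, the shares were 79.2%, 56.4% and 38.6%. The median GC content was 60.4% in member windows, 59.6% in those of tested genes and 52.4% in all, and its part in these shares was not tested. The core did not separate the directions, being present before 6 of the 7 higher and 7 of the 7 lower members at the unadjusted threshold. The higher member without it was Eno2, which like Hk3 counted as measured only through Runx3-/- arrays. TGTGGT was found before 6 of 33 members (18.2%), 12.9% of tested genes and 15.9% of all genes, and before 2 of the 7 members in either direction. Among the higher members these were Pfkp and Hk3. The E-box was found before 6 of 33 members (18.2%), against 10.2% of tested and 6.86% of all genes. These matches describe letters in a window and show no binding.

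Glucose transporters. All 3 transporters had lower means in Runx3-/- DC, with a median difference of -0.35. Slc2a1, which encodes the widely expressed carrier GLUT1, read 9.86, 9.93 and 9.85 in WT and 9.52, 9.52 and 9.58 in Runx3-/- 1 to 3. The highest Runx3-/- value was thus below the lowest WT value, and the difference was -0.34 (SE 0.07, limma unadjusted p = 0.0018, adjusted p = 0.074). Slc2a6, which encodes GLUT6, a carrier found on intracellular membranes, read 9.01, 8.94 and 8.90 in WT and 8.42, 8.60 and 8.56 in Runx3-/- arrays. The groups were again apart, by -0.42 (SE 0.08, limma unadjusted p = 0.0015, adjusted p = 0.067), the lowest p among the members. Slc2a3, which encodes the high-affinity carrier GLUT3, behaved differently. It read 11.23, 11.24 and 11.45 in WT and 10.27, 11.39 and 11.22 in Runx3-/- 1 to 3, so only Runx3-/- 1 was low, and the difference of -0.35 (SE 0.29) became -0.0024 without that array.

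Hexokinases and upper glycolysis. The hexokinases, which phosphorylate glucose, did not move as a family. Hk2, the inducible hexokinase of proliferating and activated cells, read 8.89, 8.57 and 8.78 in WT and 8.16, 8.27 and 8.36 in Runx3-/- DC, with no overlap and a difference of -0.48 (SE 0.11, limma unadjusted p = 0.0033, adjusted p = 0.098), which is 1.40-fold. Hk3, the hexokinase typical of myeloid cells, lay at the edge of detection. It read 6.02, 6.12 and 5.87 in WT and 6.60, 6.43 and 6.39 in Runx3-/- DC, so only Runx3-/- 1 exceeded 6.5. Its measured difference was 0.47 (SE 0.10, limma unadjusted p = 0.0027, adjusted p = 0.088), but since all WT arrays and the Runx3-/- mean were below background no fold is given. For Hk1, the housekeeping hexokinase, the difference was -0.04, and -0.0013 on its other probe set. The 16 probe sets that list Hk1 with further symbols all list the ribosomal gene Rpl17 too, and which transcript the brighter Hk1 probe set reads is not settled.

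Among the phosphofructokinase subunits, which form the committed step, Pfkp stood apart from the other two. Pfkp, the platelet-type subunit, read 7.96, 8.02 and 7.99 in WT and 8.52, 8.14 and 8.44 in Runx3-/- DC. All Runx3-/- values were above all WT values, with Runx3-/- 2 closest to WT, and the difference was 0.37 (SE 0.11, limma unadjusted p = 0.015, adjusted p = 0.19), or 1.29-fold. For Pfkl, the liver-type subunit, it was -0.0023 (95% interval -0.18 to 0.17), and for Pfkm, the muscle-type subunit, 0.05 (-0.15 to 0.25). Pfkm was near background, between 6.59 and 6.80. The aldolase Aldoa differed by 0.07 (-0.15 to 0.28), and Tpi1, which interconverts the triose phosphates, by 0.24 (-0.03 to 0.52) with overlapping groups. Aldoc just missed the background level, its highest value being 6.49. Gpi1, which makes fructose 6-phosphate, had no probe set to itself.

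Lower glycolysis. Of 5 measured genes from phosphoglycerate kinase to pyruvate kinase, 4 had higher means in Runx3-/- DC, with a median difference of 0.18. The 4 include Eno2, which counted as measured only through Runx3-/- arrays, so that its direction followed from the filter. Pgk1, the first ATP-yielding enzyme, read 10.15, 10.07 and 10.30 in WT and 10.64, 10.38 and 10.44 in Runx3-/- DC. The groups did not overlap, and the difference was 0.31 (SE 0.10, limma unadjusted p = 0.021, adjusted p = 0.22). Its 3 probe sets carried nearly the same values, so they do not count as separate measurements, and whether near-identical copies of the gene add to their signal was not tested. Eno2 and Eno3 encode enolases, known for their use in neurons and muscle, and they went opposite ways. Eno2 read 6.13, 5.82 and 6.38 in WT, all below background, and 6.67, 6.55 and 6.5 in Runx3-/- DC, the last just below background before rounding. It was at least 1.05-fold higher when background stood in for the WT values (measured difference 0.46, SE 0.15, limma adjusted p = 0.21). Eno3 read 11.84, 11.80 and 11.89 in WT and 11.45, 11.78 and 11.45 in Runx3-/- DC. Runx3-/- 2 was within 0.02 of its WT littermate and the other Runx3-/- arrays were lower, for a difference of -0.28 (SE 0.11, limma unadjusted p = 0.039, adjusted p = 0.28; unadjusted p = 0.064 with the replicate block). Pgam1, a mutase, differed by 0.18 (95% interval -0.03 to 0.40) and Pkm, pyruvate kinase, by 0.07 (-0.12 to 0.26). Gapdh and Eno1, the main dehydrogenase and enolase of the pathway, had no probe set to themselves. For Gapdh, 25 probe sets listed it together with other symbols.

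Lactate formation and export. Both measured genes of this step had slightly lower means in Runx3-/- DC. Ldha, the lactate dehydrogenase subunit that favours lactate formation, differed by -0.13 (95% interval -0.37 to 0.11) with overlapping groups. Slc16a3, which encodes the lactate exporter MCT4, read 7.69, 7.66 and 7.72 in WT and 7.58, 7.54 and 7.36 in Runx3-/- DC. The groups were apart, mainly through Runx3-/- 3, and the difference was -0.19 (SE 0.08, limma unadjusted p = 0.055, adjusted p = 0.33). Ldhb and the carrier gene Slc16a1 were below background in all arrays, with highest values of 4.91 and 6.21.

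Switch kinases. Of 5 measured genes, 2 had higher and 3 lower means in Runx3-/- DC. Pfkfb3 and Pfkfb4 encode bifunctional enzymes that make fructose 2,6-bisphosphate, the activator of phosphofructokinase, and both had higher means in Runx3-/- DC. A relative outside the member list, Pfkfb2, read 8.03, 7.83 and 7.84 in WT and 7.74, 7.87 and 7.43 in Runx3-/- DC, with overlap and a lower mean (-0.22, limma adjusted p = 0.48). Pfkfb3 read 9.57, 9.32 and 9.58 in WT and 10.12, 9.95 and 9.82 in Runx3-/- 1 to 3. Each Runx3-/- array was above every WT array, by 0.48 on average (SE 0.11, limma unadjusted p = 0.0055, adjusted p = 0.12), or 1.39-fold. Pfkfb4 read 8.71, 8.72 and 8.65 in WT and 8.96, 8.95 and 8.82 in Runx3-/- DC. This separation was smaller, 0.22 (SE 0.07, limma unadjusted p = 0.021, adjusted p = 0.22), but no WT array reached it.

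Pdk1, Pdk2 and Pdk3 encode kinases that shut off pyruvate dehydrogenase. Pdk3 read 11.03, 11.05 and 10.99 in WT and 10.83, 10.72 and 10.77 in Runx3-/- DC. Here the arrays of a genotype lay close together, with SDs of 0.03 and 0.06, and the difference of -0.26 (SE 0.07, limma unadjusted p = 0.0079, adjusted p = 0.14) exceeded them. Pdk1, a known Hif1a target, read 7.67, 7.37 and 7.75 in WT and 7.33, 7.35 and 7.17 in Runx3-/- DC. The groups were separated by only the step from 7.37 to 7.35, and the difference was -0.31 (SE 0.12, limma unadjusted p = 0.036, adjusted p = 0.28; unadjusted p = 0.069 with the replicate block). Pdk2 differed by -0.16 (95% interval -0.48 to 0.17), with overlapping groups, and by -0.01 without Runx3-/- 3. No switch kinase passed the adjusted test.

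**Figure D2:**
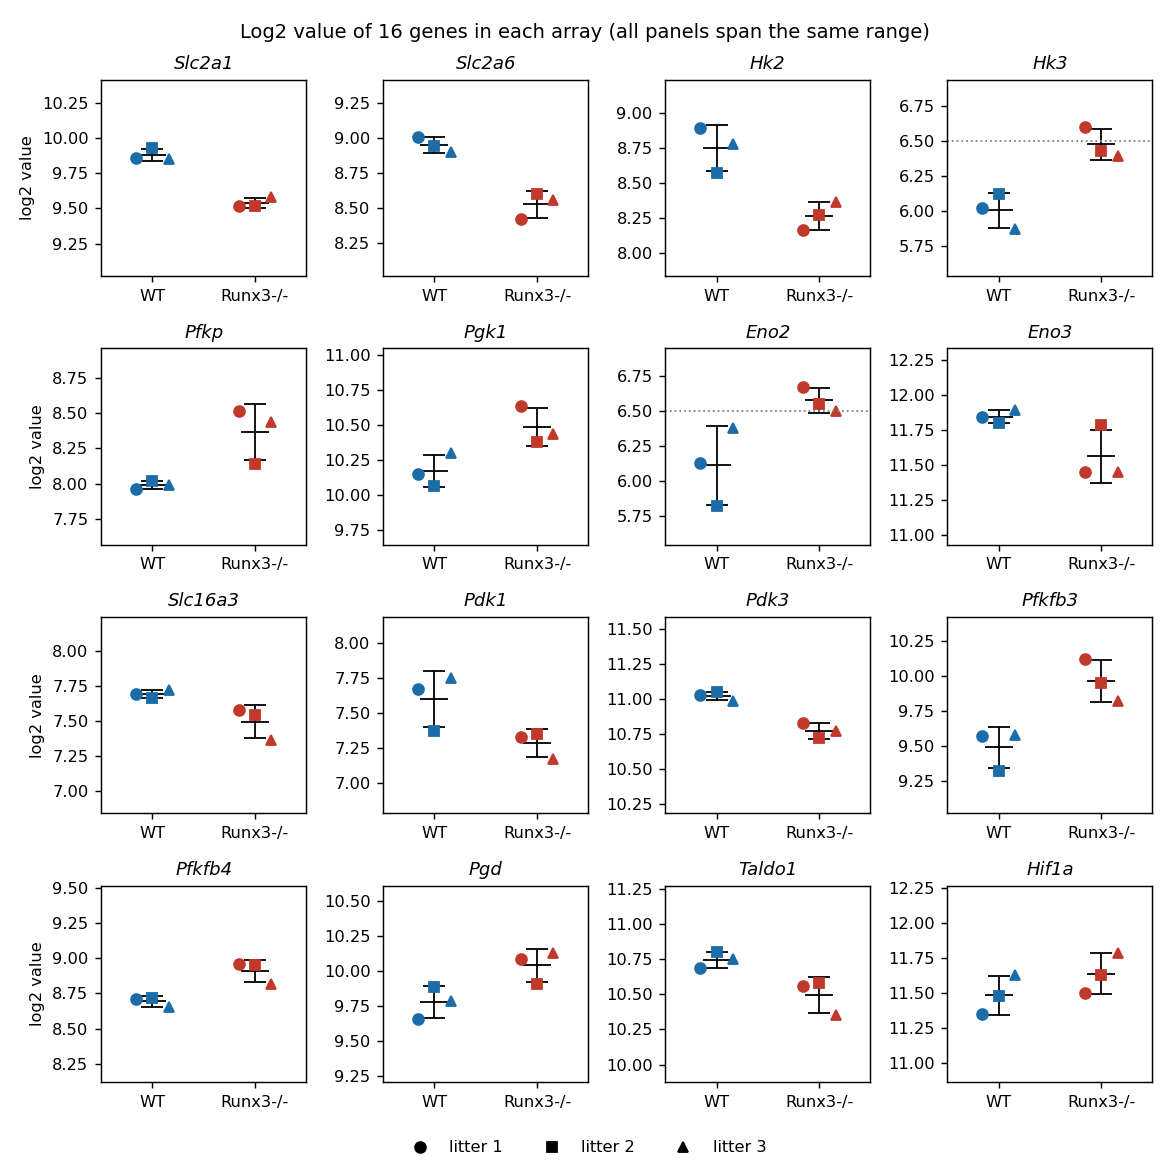
Log2 value in each of the 6 arrays for 15 members whose genotypes do not overlap and for Hif1a; markers give the litter, black lines the mean ± SD (n = 3) and the dotted line the background of 6.5. The Hif1a groups overlap, and the WT arrays of Hk3 and Eno2 all lie below background.

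Pentose phosphate branch. The 3 measured genes did not share a direction. Pgd, which encodes an NADPH-yielding dehydrogenase of the oxidative arm, read 9.66, 9.89 and 9.79 in WT and 10.09, 9.91 and 10.13 in Runx3-/- DC. Runx3-/- 2 was only 0.02 above its WT littermate, and the difference was 0.26 (SE 0.10, limma unadjusted p = 0.033, adjusted p = 0.27; unadjusted p = 0.067 with the replicate block). Taldo1, which encodes transaldolase of the non-oxidative arm, read 10.69, 10.80 and 10.75 in WT and 10.56, 10.58 and 10.35 in Runx3-/- DC. It was lower in all 3 litters, by 0.13, 0.22 and 0.41, with a mean difference of -0.25 (SE 0.09, limma unadjusted p = 0.027, adjusted p = 0.24). Tkt, transketolase, the partner of Taldo1, differed by -0.06 (95% interval -0.26 to 0.14). G6pdx, the entry enzyme of the branch, had no probe set to itself.

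The regulator Hif1a read 11.35, 11.48 and 11.63 in WT and 11.50, 11.63 and 11.79 in Runx3-/- 1 to 3. The groups overlapped, but the step within each litter was nearly the same, 0.14, 0.15 and 0.16. The mean difference was 0.15 (SE 0.11, limma adjusted p = 0.56; with the replicate block SE 0.06, limma unadjusted p = 0.068, adjusted p = 0.31). This was the RNA level only, and Hif1a is known to be controlled mainly through the stability of its protein.

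Litters and arrays. In 20 of 27 members (74.1%) the difference had the same sign in all 3 litters, as it had in 51.2% of tested genes. The median difference was 0.04, 0.02 and -0.13 in litters 1 to 3, and the median size 0.34, 0.14 and 0.23. Litter 1 thus had the largest median size, and its differences ran from -0.96 for Slc2a3 to 0.58 for Hk3. Of the 13 members with a higher Runx3-/- mean, 11 had their highest Runx3-/- value in Runx3-/- 1 and 2 in Runx3-/- 3. These 13 include Hk3 and Eno2, which counted as measured only through Runx3-/- arrays. Hk3 did so through Runx3-/- 1 alone, so its peak there was fixed by the filter. Both are also among the 20 with the same sign. Of the 14 members with a lower mean, the lowest Runx3-/- value was in Runx3-/- 1 for 5, in Runx3-/- 2 for 3 and in Runx3-/- 3 for 6. The shares of all tested genes with their extreme in each Runx3-/- array were not computed, so these counts are no result about the members.

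**Figure D3:**
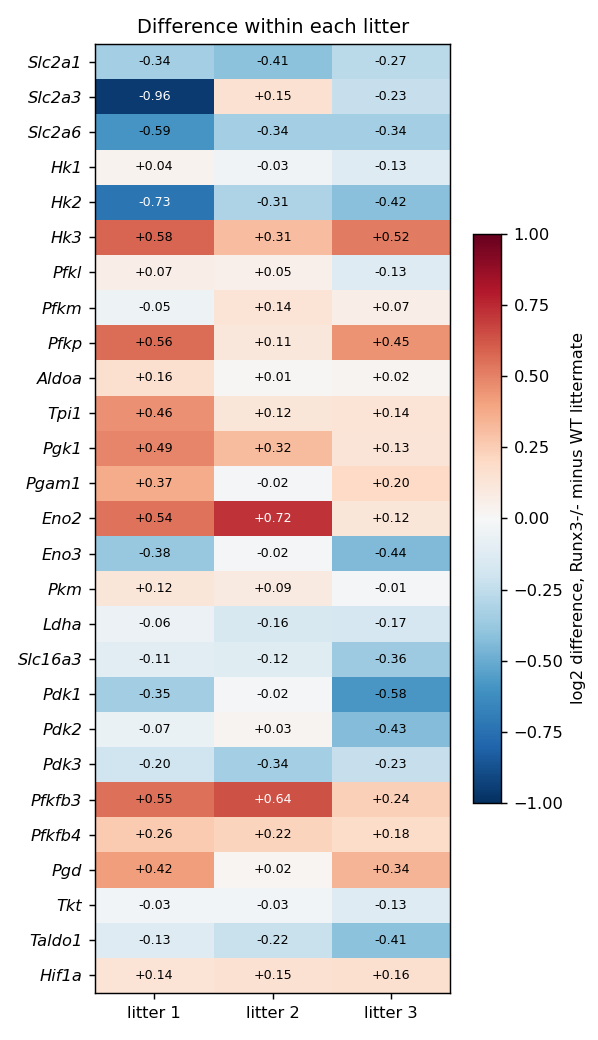
Log2 difference between the Runx3-/- mouse and its WT littermate for the 27 measured genes in each litter, as colour and number. The median size is largest in litter 1 (0.34), and 20 of 27 genes keep one sign across the 3 litters.

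Some markers of other cells differed with the genotype. Of 10 red pulp macrophage markers, 9 were above background, Cd163 was not, and 5 passed the adjusted test as higher in Runx3-/- DC. These 5 were Spic, C1qa, C1qb, C1qc and Mertk. Vcam1 (1.39), Slc40a1 (1.07), Hmox1 (0.22) and Adgre1 (0.013) did not pass. The summed linear level of the 10 markers was 11300, 11400 and 8650 in WT and 17700, 17300 and 14900 in Runx3-/- 1 to 3. For monocytes, 3 of the 5 markers found on the array were above background, Fn1 and Chil3 were not, and the sum was 8750 to 10800 in WT and 13600 to 14700 in Runx3-/- arrays. These 3 monocyte markers had higher Runx3-/- means, and none passed the adjusted test. Plasmacytoid DC markers, 4 of 4 above background, summed to 1240 to 1340 in WT and to 1390, 1720 and 3590 in Runx3-/- 1 to 3, so that Runx3-/- 3 stood out. The CD8+ DC markers, of which 5 of 6 were above background and Itgae was not, summed to 1200 to 1390 in WT and 1270 to 1740 in Runx3-/- arrays, which overlap. Of these 5, 4 had higher Runx3-/- means and 1 a lower one, and none passed the adjusted test. Xcr1 was at 0.68 with groups apart (limma adjusted p = 0.16), Clec9a at 0.61 and Tlr3 at 0.09. Cd8a was at 0.39 and exceeded background only in Runx3-/- 3. Batf3 was lower (-0.47, limma adjusted p = 0.20). For B cells, 4 of 6 markers were above background, Pax5 and Ebf1 were not, and the sums were 1320 to 1760 in WT and 1800 to 1910 in Runx3-/- arrays. These B cell markers went both ways, as Blk fell (-1.09, limma adjusted p = 0.023) and Cd79a was at -0.015, while the other two had higher means without passing. Whether such cells were present, or the sorted DC themselves carried these transcripts, was not tested, nor was a part of either in the member differences. The 8 markers of dividing cells were all above background and overlapped, with sums of 8260 to 12100 in WT and 9030 to 12700 in Runx3-/- arrays.

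Around the members, 8 further lists of the same metabolism held 3 adjusted calls among 123 measured genes (2.44%), a share near the 2.27% of all tested genes. The other genes of glucose entry and lower glycolysis, 14 measured of 36, had a median of -0.12 and 0 adjusted calls. All 14 had lower Runx3-/- means, as had 58.7% of all tested genes, among them Gpd1l (-0.53, SE 0.10, limma adjusted p = 0.063), related to the enzymes that make glycerol 3-phosphate, the mitochondrial glycerol 3-phosphate dehydrogenase Gpd2 (-0.18) and the mutarotase Galm (-0.41). At an unadjusted p of 0.05, 3 of them (21.4%) were lower and 0 higher, where 11.8% and 7.59% of tested genes were. In the rest of the pentose phosphate pathway, 10 measured of 12, the median was -0.09, 0 passed the adjusted test and 1, the dehydrogenase H6pd (-0.26), was lower at the unadjusted threshold. Shpk (-0.31) and Idnk (-0.17), kinases of sedoheptulose and gluconate, followed by p.

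Of 20 measured genes of pyruvate entry and redox shuttles, 1 passed and the median was -0.01. Slc16a6, a monocarboxylate carrier, read 7.85, 7.68 and 7.96 in WT and 7.25, 7.14 and 7.18 in Runx3-/- DC, and fell by 0.64 on the log2 scale (SE 0.09, limma adjusted p = 0.034). The next by p were Pdha1, a subunit of pyruvate dehydrogenase, at 0.26 and Pdpr, a regulator of its phosphatase, at -0.17. In the tricarboxylic acid cycle, 1 of 19 measured genes passed, with a median of 0.05. Idh1, the cytosolic isocitrate dehydrogenase and another source of NADPH, read 9.09, 8.93 and 9.13 in WT and 10.27, 9.81 and 9.95 in Runx3-/- DC and rose 1.95-fold (log2 difference 0.96, SE 0.13, limma adjusted p = 0.032). Its mitochondrial relative Idh2 (-0.20) and the malate dehydrogenase Mdh2 (-0.26) did not pass. Of 19 measured regulators of glucose use, 1 passed as lower, and the median was -0.09. At the unadjusted threshold 4 of them (21.1%) were lower and 0 higher, where 11.8% and 7.59% of tested genes were. Myc, a transcription factor of growth that also drives glycolytic genes, read 10.58, 10.42 and 10.72 in WT and 9.89, 9.59 and 9.50 in Runx3-/- DC and fell by 0.91 (SE 0.13, limma adjusted p = 0.034). Rptor, a subunit of the growth kinase complex mTORC1, was at -0.49 and Txnip, an inhibitor of glucose uptake, at -0.34, neither passing the adjusted test. In a fit with litters as a replicate block these adjusted p-values were 0.094 for Slc16a6, 0.081 for Idh1 and 0.10 for Myc, and without WT 1 it was 0.17, 0.15 and 0.16. Leaving out single arrays kept a call at 0.05 for Slc16a6 only without WT 2 (0.049), for Idh1 only without Runx3-/- 2 (0.046) and for Myc in no case (0.065 to 0.16).

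The hypoxia-inducible factor list, 16 measured of 22, had a median of 0.04, with 0 adjusted calls, 2 higher and 1 lower at the unadjusted threshold. One of the higher genes, the vascular growth factor Vegfa, was tested only through Runx3-/- arrays, since it stood at 6.17 to 6.27 in WT, below background, and at 6.5 to 6.63 in Runx3-/- DC (measured difference 0.36, limma adjusted p = 0.080). Without it, 1 was higher and 1 lower. P4ha1, a collagen prolyl hydroxylase, was at 0.23 and Car9, a carbonic anhydrase, at -0.41. For glycogen, hexosamine and sugar interconversion, 18 measured of 26, the median was -0.06 with 0 adjusted calls, and the genes first by p were the glycogen synthase Gys1 (-0.25), the primer protein Gyg (0.27) and the hexosamine enzyme Gnpnat1 (0.22). The serine and one-carbon branch, 7 measured of 9, had a median of -0.02 and 0 calls at either threshold, with Shmt1 at 0.13, Shmt2 at -0.19 and Psat1 at -0.13.

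**Figure D4:**
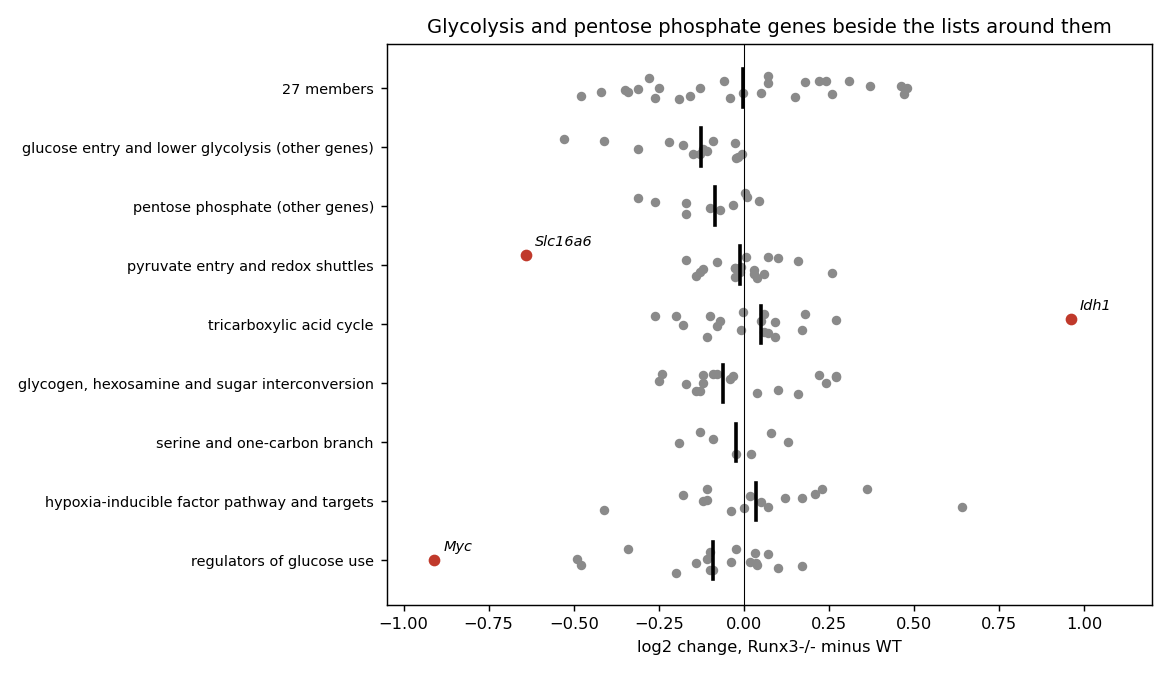
Log2 difference between Runx3-/- and WT DC for the 27 members and for the measured genes of 8 surrounding lists, one point per gene; vertical bars are medians and named red points passed the adjusted threshold of 0.05. The members spread to both sides of 0, and the 3 named points, Slc16a6, Idh1 and Myc, lie outside the member list.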

How the data were processed

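The authors summarised the arrays in Partek by the robust multichip average with GC correction, which forces arrays onto a common distribution and would hide a shift shared by most genes. The deposited log2 values were used as they stood. The labels name the mm9 build and no software version, and promoters of GRCm38.p6 were joined by gene name only. An exon array is named in the methods, but the probe set identifiers belong to a gene-level design. Of 35399 probe sets, 21789 had 1 symbol, 1621 several and 11989 none listed. The brightest single-symbol probe set stood for a gene, and the 19149 probe sets at or above 6.5 in 1 array or more were tested with limma 3.58.1 in R 4.3.3 (lmFit and eBayes, genotype as the only term, two-sided), after a check on simulated data. Runx3 also had an exact permutation test (p = 0.1, the smallest that 3 against 3 arrays allow). The labels give the litters, and deviations from the genotype means correlated at r = 0.16, 0.10 and 0.25 for arrays of the same litter. For a WT and a Runx3-/- array of different litters, r ran from -0.23 to 0.10. Array values are printed for members past an adjusted p of 0.05, members past an unadjusted p of 0.05 whose groups do not overlap, and then by p to 14, with 1 or more per role, and the 3 genes lowest by p are named from each surrounding list. Slc2a3 was added after its values were seen. The members and lists were chosen with earlier results of these data known. The number of arrays limits precision.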

Additional observations from a re-analysis of the deposited data

How the results depend on the processing

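The values of Runx3 and the members and the counts of calls were recomputed under 14 other settings (13 for Hk3 and Eno2, which a stricter filter removed), and Slc16a6, Idh1 and Myc under 13. List medians, marker sums, litter signs, overlap counts and promoter shares were not. No member passed the adjusted threshold under any setting. The median member difference stayed between -0.04 and 0.04. Of 376 member values under these settings, 370 kept their direction and 6 turned, all of them near 0: Pfkl was 0.038 with median centring, 0.05 with quantile normalization, and -0.034 to 0.037 when single arrays were left out (0.0022 without Runx3-/- 2, 0.023 without Runx3-/- 3, 0.037 without WT 3), and Aldoa was -0.001 to 0.12 when single arrays were left out, the former without Runx3-/- 1. Leaving out single arrays gave 9 to 14 members at the unadjusted threshold, and 0 to 1 past the thresholds of the methods, the 1 being Eno2 without WT 3. Over all 19149 tested probe sets, 1972 to 3477 passed unadjusted when single arrays were left out, and 3042 with all arrays. With the litter as a replicate block, 11 members passed unadjusted, Eno3, Pdk1 and Pgd no longer. Over all probe sets the adjusted calls depended on the setting: 298 passed, 6 with the one-way analysis of variance named in the methods, 0 with the replicate block (3430 at an unadjusted p of 0.05, limma) and 0 to 205 when single arrays were left out, with 0 without WT 1 (1972 unadjusted), 1 without Runx3-/- 3, 40 without Runx3-/- 1, 75 without WT 3 and 137 without WT 2. Runx3 had an adjusted p of 0.061 with the replicate block and 0.054 without WT 1, at differences of -1.98 and -1.96, and its difference ranged from -2.03 to -1.96 when single arrays were left out. The cause was not tested. Rescaling moved the median over all probe sets by at most 0.04. Without Hk3 and Eno2, both below background in WT, 12 members passed unadjusted and the median was -0.04, and with the other Hk1 probe set these were 14 and -0.0013, both settings chosen after seeing the data. Values near 6.5 understate differences.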
